A study of Mus musculus with 6 samples.

Results

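Resistin-like proteins, chitinase-like proteins and the receptors and enzymes of alternatively activated macrophages were followed through 9 genes, Retnla, Retnlg, Chil1, Chil3, Chia1, Arg1, Mrc1, Mgl2 and Cd163. They were taken by name from the 19938 genes measured, each through its probe set with a single gene symbol. All 9 had exactly 1 such probe set, so no choice among probe sets was needed. The tissue was the larger proximal airway, cut by hand out of stained frozen lung sections. The mice were 9 weeks old, on a background that mixed C57BL/6 with 129X1. Affymetrix mouse gene arrays were used, 1 per sample, with 3 mutant arrays, of genotype Scgb1a1-cre:Foxp1flox/flox:Foxp4flox/flox, and 3 control arrays, of genotype Scgb1a1-Cre. Both groups thus carried the Cre driver. The Scgb1a1 promoter is active in club cells, and cells of the airway wall in which it is silent, macrophages and neutrophils among them, keep Foxp1 and Foxp4. The labels do not say that the 3 samples of a group came from separate mice, so p-values cover only how far these samples differ, and that spread may be technical.

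In mice, interleukin 4 and interleukin 13 act through their receptors and the transcription factor STAT6 on macrophages and induce a set of genes known as alternative activation, which includes Retnla, Chil3, Arg1, Mrc1 and Mgl2. The resistin-like proteins are small secreted, cysteine-rich proteins. The chitinase family holds enzymes that cut chitin, such as the product of Chia1, and relatives such as those of Chil1 and Chil3 that have lost this activity. Several of these genes are also used outside macrophages in the mouse lung, by epithelial cells, neutrophils or fat, so a dissected airway can hold more than 1 source of each.

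Levels are given on the log2 scale, with 1 value for a gene on each array. The array medians lay between 5.89 and 5.95 and the lower quartiles between 4.42 and 4.50. Control 1 stood apart from the other controls, with a correlation across genes of 0.972 with control 2 and 0.978 with control 3, against 0.992 between controls 2 and 3. Mutant 2 likewise stood apart from the other mutants, with 0.982 and 0.983 against mutants 1 and 3, which correlated at 0.993 with each other. Across groups, control 1 correlated at 0.983, 0.982 and 0.979 with mutants 1, 2 and 3. Control 2 correlated at 0.972 with each mutant, and control 3 at 0.975 to 0.980. These values do not tell whether control 1 or the pair of controls 2 and 3 is the unusual part of its group. The airway secretory marker Scgb1a1 read between 12.50 and 12.58 on mutant arrays and between 12.13 and 12.41 on control arrays, and the highest value of any array was between 13.4 and 13.6. The dissected tissue also carried markers of alveolar type 2 cells, cardiac muscle and B cells. In such a mixture, fewer cells of a type and less RNA per cell cannot be told apart.

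The resistin-like genes gave the largest differences among the 9. Retnla, a secreted product of alternatively activated macrophages that is also made in lung epithelium and fat, read 11.82, 12.07 and 11.85 on the mutant arrays, against 10.50, 11.18 and 10.48 on the control arrays. Every mutant array lay above every control array, and the mutant arrays lay within 0.25 of each other. Retnla averaged 11.92 ± 0.13 in mutant airways and 10.72 ± 0.40 in control airways (SD, n = 3 each), a 2.29-fold higher mean in mutants. The log2 difference was 1.20 (SE 0.20, 95% interval 0.71 to 1.68), and limma's test over all genes gave an adjusted p of 0.113.

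Retnlg, a resistin-like gene known in mice from bone marrow and neutrophils, read 8.50, 9.53 and 8.69 on the mutant arrays, against 7.32, 7.63 and 7.71 on the control arrays. The groups did not overlap here either, and mutant 2 was the highest array. Retnlg averaged 8.91 ± 0.55 in mutant airways and 7.55 ± 0.20 in control airways (SD, n = 3 each), a 2.56-fold higher mean. The log2 difference was 1.35 (SE 0.27, 95% interval 0.70 to 2.01, limma adjusted p = 0.183), and without mutant 2 it was 1.04 (adjusted p = 0.107). For both genes the two-sided exact permutation p was 0.1, which is the smallest that 3 arrays against 3 allow. Without control 1 the log2 differences were 1.09 for Retnla and 1.24 for Retnlg. Whether these related genes share signal on the array was not tested, so their values may not be independent of each other.

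**Figure D1:**
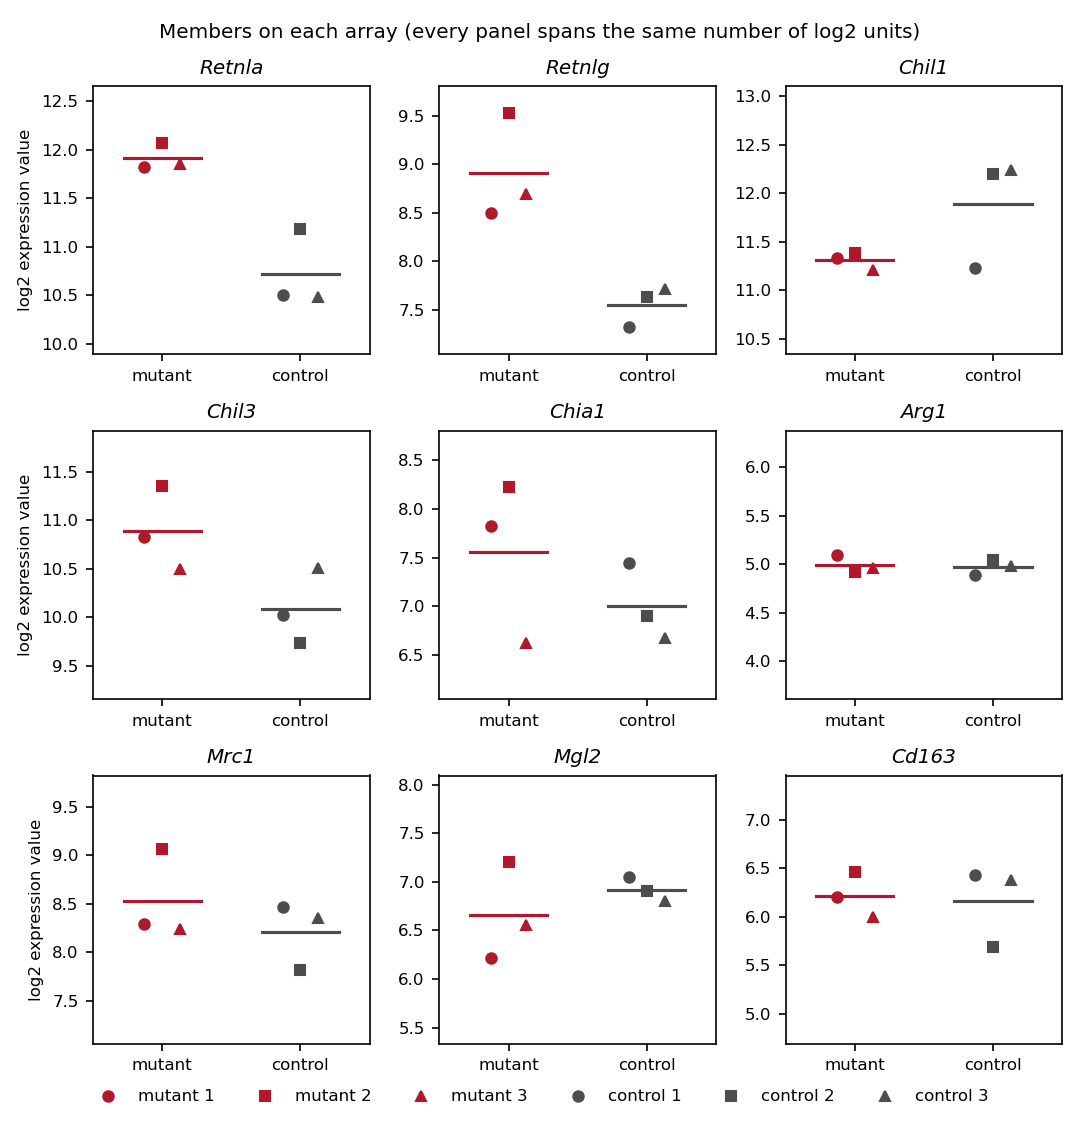
Log2 expression value (vertical axis) of each of the 9 genes on the 3 mutant arrays (red) and the 3 control arrays (grey). Lines are group means and symbol shapes are array numbers. Retnla and Retnlg are the panels in which the groups do not overlap.

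Retnla and Retnlg are neighbours on chromosome 16, in the order Retnlb, Retnla, Retnlg. Retnlb, an intestinal goblet cell member of the family, read 4.39, 4.14 and 4.18 on mutant arrays and 3.79, 3.76 and 4.03 on control arrays. Its groups did not overlap, but all 6 values lay below the lower quartile of their arrays. The log2 difference of Retnlb was 0.38 (SE 0.11, limma adjusted p = 0.349). Retn, the resistin gene of mouse fat, read 7.72, 8.65 and 6.91 on mutant arrays and 9.24, 6.50 and 7.47 on control arrays, with a log2 difference of 0.02 (95% interval -1.77 to 1.81). Its widest gap was between controls 1 and 2. A list of 6 adipocyte markers averaged 7.32, 8.23 and 7.10 on the mutant arrays and 9.21, 6.75 and 7.34 on the control arrays, so control 1 was highest for both.

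The promoters of Retnla and Retnlg are shown because both genes were higher and because interleukin 4 is known to induce mouse Retnla through STAT6 and C/EBP sites before its start. The windows are RefSeq sequences of build GRCm38.p6, from 250 bases before to 50 after the gene start, both on the plus strand, Retnla at chr16:48842359-48842658 and Retnlg at chr16:48872358-48872657. Capitals mark matches, on either strand, to the STAT pattern, which is TTC and GAA with 4 bases of any kind between them, and to the C/EBP pattern TTGCNNAA, in which N is any base.
Retnla: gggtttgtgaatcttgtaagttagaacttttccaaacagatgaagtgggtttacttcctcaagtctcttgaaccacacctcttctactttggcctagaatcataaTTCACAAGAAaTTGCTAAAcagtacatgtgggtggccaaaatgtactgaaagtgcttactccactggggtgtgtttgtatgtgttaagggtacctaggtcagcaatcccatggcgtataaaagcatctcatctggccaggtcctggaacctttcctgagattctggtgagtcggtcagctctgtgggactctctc
Retnlg: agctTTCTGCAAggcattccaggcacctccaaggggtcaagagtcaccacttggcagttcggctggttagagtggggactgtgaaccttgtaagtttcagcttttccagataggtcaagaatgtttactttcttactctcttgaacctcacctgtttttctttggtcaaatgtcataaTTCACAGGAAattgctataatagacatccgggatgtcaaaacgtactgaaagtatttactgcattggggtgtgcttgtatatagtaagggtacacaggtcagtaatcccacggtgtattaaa

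The STAT match lay 145 to 136 bases before the start of Retnla and 72 to 63 bases before that of Retnlg. Shifted by 73 bases and compared without gaps, the windows shared 148 of 227 bases (65.2%). In that register the annotated starts are 73 bases apart, so the distances are not comparable, and the STAT matches fell on each other.
Retnla: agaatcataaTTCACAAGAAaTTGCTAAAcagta
Retnlg: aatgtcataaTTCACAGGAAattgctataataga
The C/EBP match followed the STAT match of Retnla, at 134 to 127 bases before the start. In Retnlg it lay elsewhere, at 246 to 239 bases. The matches to the 2 patterns did not overlap. Of all 32851 promoter windows of this length, 6.95% held the STAT pattern and 10.8% the C/EBP pattern. Among the 8 windows found for the 9 genes, Retnla and Retnlg were the ones with either. A match describes these letters and does not show that a factor binds there.

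The chitinase family genes had differences of both signs. Chil3, known as Ym1, a secreted lectin-like protein of alveolar macrophages and neutrophils in mice, read 10.83, 11.35 and 10.50 on mutant arrays, against 10.02, 9.73 and 10.51 on control arrays. Mutant 3 and control 3 had almost the same value, so the groups touched. Chil3 averaged 10.90 ± 0.43 in mutant airways and 10.09 ± 0.39 in control airways (SD, n = 3 each). The log2 difference was 0.81 (SE 0.27, 95% interval 0.15 to 1.47, limma adjusted p = 0.413), and without control 1 it was 0.78. Chil4, its close relative and neighbour on chromosome 3, read between 4.79 and 5.14 on mutant arrays and between 4.75 and 4.81 on control arrays, below the array medians (log2 difference 0.16, adjusted p = 0.689). Whether signal of these near copies mixes on the array was not tested.

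Chil1, the mouse counterpart of human YKL-40 and a chitinase-like protein without enzyme activity, ran the other way. It read 11.33, 11.39 and 11.21 on mutant arrays, against 11.23, 12.20 and 12.24 on control arrays. Controls 2 and 3 were high, and control 1 lay among the mutants. Chil1 averaged 11.31 ± 0.09 in mutant airways and 11.89 ± 0.57 in control airways (SD, n = 3 each), with a log2 difference of -0.58 (SE 0.27, 95% interval -1.23 to 0.07, limma adjusted p = 0.554). Without control 1 the difference was -0.91 and passed (adjusted p = 0.0187), in a setting in which 1.36% of all genes passed as lower and 0.587% as higher. Without controls 2 and 3 it was 0.08. The same control arrays stood out in the list of 6 B and plasma cell markers, which averaged 6.16, 8.38 and 6.49 on the mutant arrays and 6.82, 10.18 and 10.01 on the control arrays. The part of that cell mixture in the values of Chil1 was not tested.

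Chia1 encodes acidic mammalian chitinase, an enzyme of the airway lining that degrades chitin. It read 7.83, 8.23 and 6.62 on mutant arrays, against 7.44, 6.90 and 6.67 on control arrays. The lowest and the highest of the 6 values were both from mutants. Its log2 difference was 0.55 (SE 0.43, 95% interval -0.47 to 1.58, limma adjusted p = 0.743). Of 6 other measured genes of the chitinase family, 4 were above 0 and none passed, with a median log2 difference of 0.08, against 0.02 over all genes. Chit1, the chitotriosidase gene next to Chil1 on chromosome 1, had the smallest p of these (log2 difference 0.13, adjusted p = 0.679), followed by Chil4 and Chil5 (0.15, adjusted p = 0.808).

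**Figure D2:**
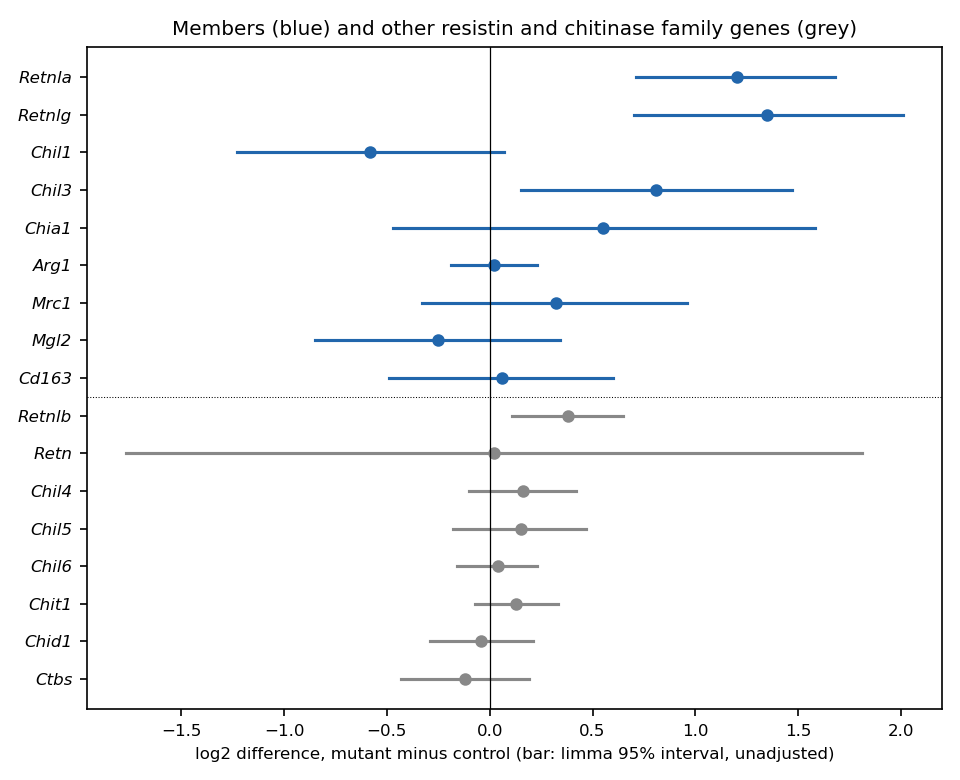
Log2 difference, mutant minus control (horizontal axis), of the 9 genes (blue) and 8 other resistin and chitinase family genes (grey), with limma's 95% interval, which is not adjusted for the number of genes. The intervals of Retnla, Retnlg, Chil3 and Retnlb lie above 0, and that of Retn is the widest.

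The enzyme and receptor genes of alternatively activated and resident macrophages, Arg1, Mrc1, Mgl2 and Cd163, gave smaller differences than Retnla and Chil3. Retnla and Chil3 belong to the alternative activation set too, so the measured differences within that set were uneven. Whether its genes differ from each other in this was not tested. Arg1, the enzyme that splits arginine into ornithine and urea, read 5.10, 4.92 and 4.96 on mutant arrays, against 4.89, 5.04 and 4.98 on control arrays, below the median of each array. The groups lay within 0.21 of each other (log2 difference 0.02, 95% interval -0.19 to 0.23, adjusted p = 0.967). Since RMA compresses differences of dim probe sets and no detection calls were used, that interval holds for the signal and not for Arg1 RNA below background.

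Mrc1, the mannose receptor CD206, read 8.29, 9.06 and 8.24 on mutant arrays, against 8.47, 7.82 and 8.35 on control arrays. Its highest array was mutant 2 and its lowest control 2, while the other 4 lay between 8.24 and 8.47 (log2 difference 0.32, 95% interval -0.33 to 0.96, adjusted p = 0.776). Mgl2, a galactose-type lectin of dendritic cells and macrophages, read 6.22, 7.21 and 6.56 on mutant arrays, against 7.05, 6.91 and 6.80 on control arrays (log2 difference -0.25, 95% interval -0.85 to 0.34, adjusted p = 0.820). The mutant arrays lay on both sides of the controls. Cd163, the scavenger receptor for haemoglobin bound to haptoglobin, read 6.20, 6.46 and 6.00 on mutant arrays, against 6.43, 5.69 and 6.38 on control arrays (log2 difference 0.06, 95% interval -0.49 to 0.60, adjusted p = 0.966). These intervals leave room for a log2 difference as large as 0.96 for Mrc1, and p-values above the threshold do not show equal levels.

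Counted together, 0 of the 9 genes passed limma's test at an adjusted p under 0.05, against 0.266% of all genes (0.236% as higher and 0.0301% as lower). At an unadjusted p under 0.05 there were 3 of 9, Retnla, Retnlg and Chil3, all higher in mutants, against 5.90% of all genes for that direction, 4.17% for the other and 10.1% for either. Groups that did not overlap were found for 2 of 9, both higher, against 9.33% of all genes as higher, 5.64% as lower and 15.0% either way. Means at least 2-fold higher were found for the same 2 of 9, against 0.537% of all genes as higher and 1.57% either way. The median log2 difference of the 9 was 0.32 and 7 of 9 lay above 0, against 0.02 and 54.6% over all genes. Since the 9 genes were chosen with earlier results of these data known, these counts describe them and are no test of the group. Retnla and Retnlg are also related neighbours whose shared signal was not tested, so they may not count as separate genes. With array weights, which gave control 1 a weight of 0.505 and mutant 2 one of 0.484, Retnla passed (log2 difference 1.24, adjusted p = 0.0297), in a setting in which 1.07% of all genes passed as higher and 0.386% as lower. Without control 1 and mutant 2 together, Retnlg passed as higher (0.93, adjusted p = 0.0118) beside 1.60% of all genes, and Chil1 as lower (-0.95, adjusted p = 0.00788) beside 3.22%.

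**Figure D3:**
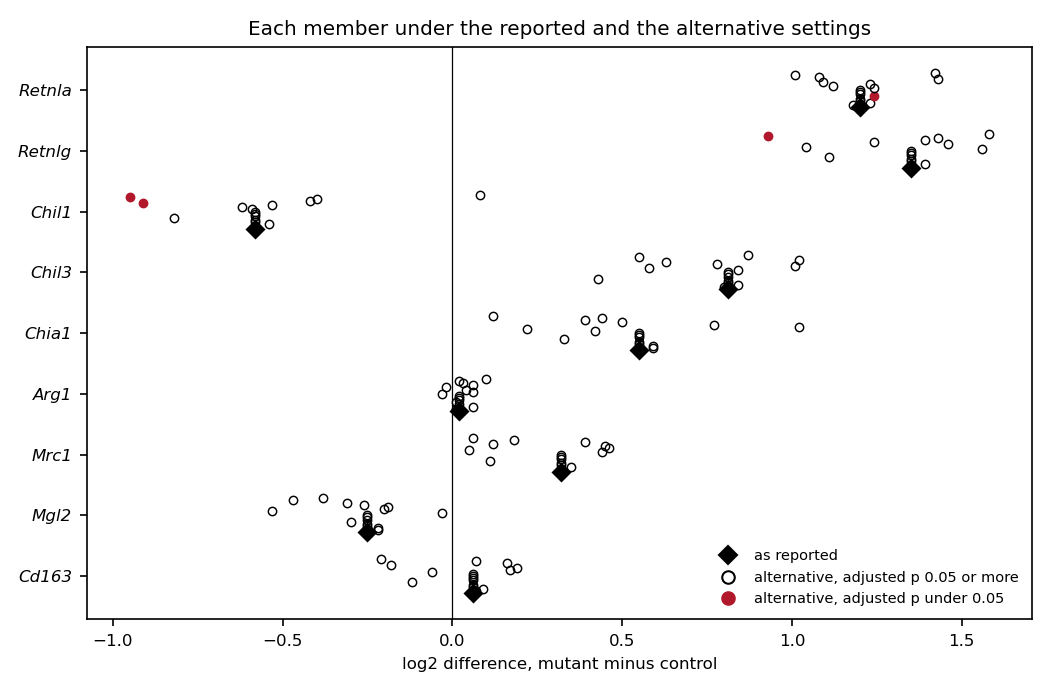
Log2 difference, mutant minus control (horizontal axis), of each gene as reported (diamonds) and under 16 alternative settings (circles, 15 for Arg1), filled red where the limma adjusted p was under 0.05. Retnla and Retnlg stay above 0.9 in each setting shown, while Arg1, Cd163 and Chil1 have values on both sides of 0.

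Marker lists of the cells that could carry these RNAs were set beside them. The 12 general macrophage markers averaged 8.11, 8.66 and 7.89 on mutant arrays and 8.26, 8.59 and 8.56 on control arrays, with a median log2 difference of -0.20 and 4 of 12 above 0. The 10 interstitial macrophage markers averaged between 7.57 and 8.16 on mutant arrays and between 8.01 and 8.19 on control arrays (median -0.12, 4 of 10 above 0). The 9 alveolar macrophage markers averaged between 7.40 and 7.81 on mutant arrays and between 7.49 and 7.54 on control arrays (median 0.05, 5 of 9 above 0). The 11 neutrophil markers averaged 6.66, 7.11 and 6.80 on mutant arrays and 7.15, 6.90 and 7.47 on control arrays (median -0.30, 3 of 11 above 0). The neutrophil genes S100a8, S100a9 and Mmp9 differed by -0.30, -0.21 and -0.71. Mmp9 was lower on every mutant array than on every control array (limma adjusted p = 0.184). Ly6g differed by 0.17 and was higher on every mutant array, but all its values lay below the lower quartile of their arrays. Within the macrophage lists the genes went both ways. Cd14 of the general list (-0.62, limma adjusted p = 0.201) was lower on every mutant array than on every control array. So was Maf of the interstitial list (-0.28, adjusted p = 0.345). The complement genes C1qa, C1qb and C1qc differed by -0.83, -0.79 and -0.64, whereas Lyve1, Cx3cr1, Siglec1 and Folr2 of the same list differed by 0.26, 0.08, 0.08 and 0.02. Of the alveolar macrophage markers, Atp6v0d2 (0.73, adjusted p = 0.475) and Marco (0.47, adjusted p = 0.606) were higher on every mutant array than on every control array, and Abcg1 (-0.25, adjusted p = 0.502) was lower. Groups were apart as lower for 1 of 12 general and 1 of 10 interstitial markers. They were apart as higher for 2 and as lower for 1 of 9 alveolar macrophage markers, and for 1 each way of 11 neutrophil markers. Over all genes the shares were 9.33% as higher and 5.64% as lower, so single separations of this kind are common. None of these 4 lists was higher in all mutant arrays than in all controls, and none of their genes passed. Mutant 2 was the highest mutant array for all 4, as it was for each of the 9 genes except Arg1.

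Most alveolar type 2 and airway secretory markers lay above 0. The 10 alveolar type 2 markers averaged 11.06, 11.17 and 10.99 on mutant arrays and 10.74, 10.65 and 10.76 on control arrays, so the groups did not overlap. Their median log2 difference was 0.37, and 9 of 10 lay above 0, against 54.6% of all genes. Of the 10, 6 were higher without overlap, against 9.33% of all genes. None passed alone, the smallest adjusted p being that of Etv5, a transcription factor of these cells (log2 difference 0.73, adjusted p = 0.0581). The 9 airway secretory markers averaged between 10.94 and 11.60 on mutant arrays and between 10.96 and 11.41 on control arrays, so their means overlapped, but 8 of 9 lay above 0 and 5 were higher without overlap (median 0.17). Among them, Agr2, a protein disulfide isomerase of mucous cells, was 2.51-fold higher (adjusted p = 0.211) and the mucin gene Muc5b 1.69-fold higher (adjusted p = 0.218), while Bpifa1, a secreted airway defence protein, differed by -1.61 (adjusted p = 0.538). The part of epithelial RNA in the values of Retnla was not tested.

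**Figure D4:**
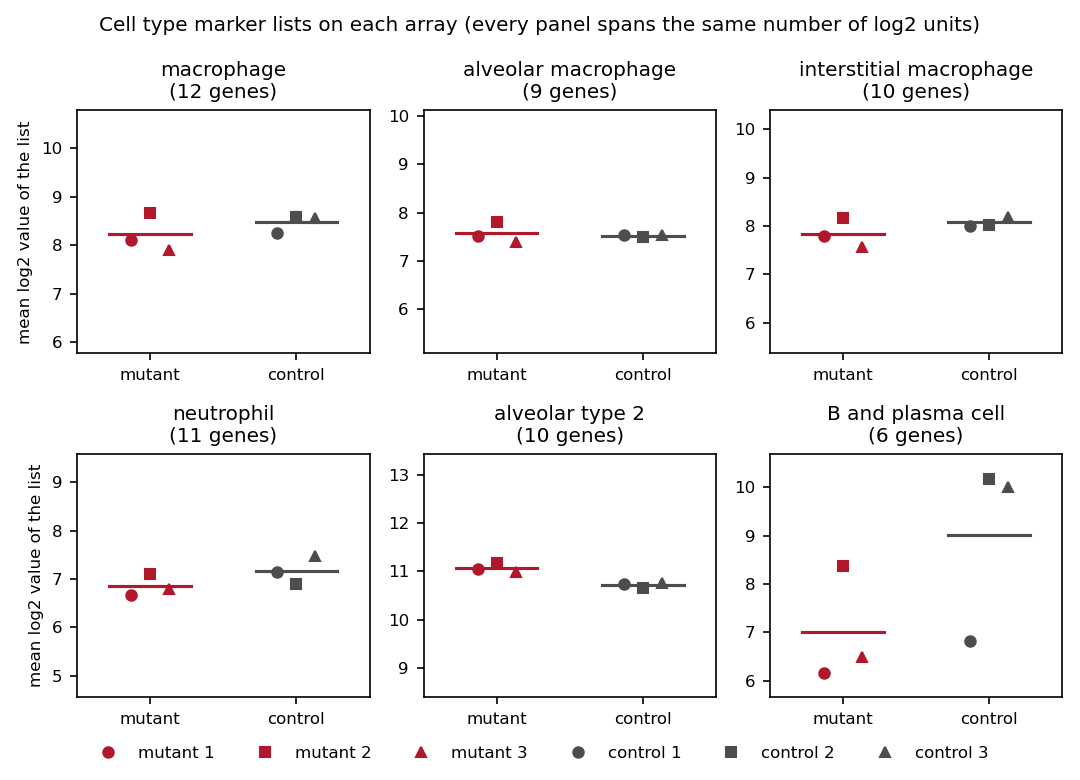
Mean log2 value (vertical axis) of 6 lists of cell type markers on the 3 mutant arrays (red) and the 3 control arrays (grey). Lines are group means. The alveolar type 2 list is the one in which the mutant arrays (10.99 to 11.17) lie above the controls (10.65 to 10.76), and the B and plasma cell list has control 1 among the mutants.

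Each gene was also expressed relative to the mean of a marker list on the same array, a measure chosen after the values were seen. There were 14 lists. The measure carries no test, and the size of such a value on 1 array has no meaning of its own. Retnla and Retnlg were apart before any subtraction. They stay apart with any list that varies little between arrays, so counts of such lists are no separate evidence. The share of all genes that each list leaves apart was not computed. Retnla less the macrophage markers came to 3.71, 3.41 and 3.97 on mutant arrays, against 2.24, 2.59 and 1.92 on control arrays. Retnla less the alveolar type 2 markers came to 0.77, 0.90 and 0.87 on mutant arrays, against -0.24, 0.53 and -0.28 on control arrays. The groups were apart in both cases, by less with the alveolar type 2 list, where the difference of means was 0.84. Less the adipocyte markers, Retnla came to 4.50, 3.84 and 4.75 on mutant arrays, against 1.29, 4.42 and 3.14 on control arrays, and the groups overlapped. The basal cell and cardiac muscle lists gave an overlap too, while the other 11 lists left the Retnla groups apart.

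Retnlg less the neutrophil markers came to 1.84, 2.42 and 1.89 on mutant arrays, against 0.17, 0.73 and 0.24 on control arrays, a difference of means of 1.67. The Retnlg groups were apart with 12 of the 14 lists and overlapped with the basal cell and cardiac muscle lists. Chil3 less the macrophage markers came to 2.72, 2.69 and 2.62 on mutant arrays, against 1.77, 1.14 and 1.95 on control arrays, with the groups apart. Against the alveolar macrophage markers Chil3 stood at 3.31, 3.54 and 3.10 on mutant arrays and at 2.48, 2.24 and 2.97 on control arrays. The Chil3 groups were apart with the 6 lists of macrophage, neutrophil, eosinophil and dendritic cell markers and overlapped with the other 8, such as the alveolar type 2 list, with -0.23, 0.18 and -0.49 on mutant arrays and -0.71, -0.92 and -0.25 on control arrays.

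Mrc1 less the macrophage markers overlapped, at 0.18, 0.39 and 0.36 on mutant arrays and 0.21, -0.77 and -0.21 on control arrays. Less the interstitial macrophage markers it came to 0.49, 0.90 and 0.68 on mutant arrays, against 0.45, -0.20 and 0.15 on control arrays, and there and with the neutrophil markers the groups were apart. With the other 12 lists Mrc1 overlapped, so the picture for Mrc1 and Chil3 depended on the list. Mgl2, Chia1 and Cd163 overlapped with all 14 lists. Chil1 and Arg1 overlapped with all but the alveolar type 2 list, where both were lower on the mutant arrays. That list was itself higher on the mutant arrays, and Arg1 alone differed by 0.02.

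**Figure D5:**
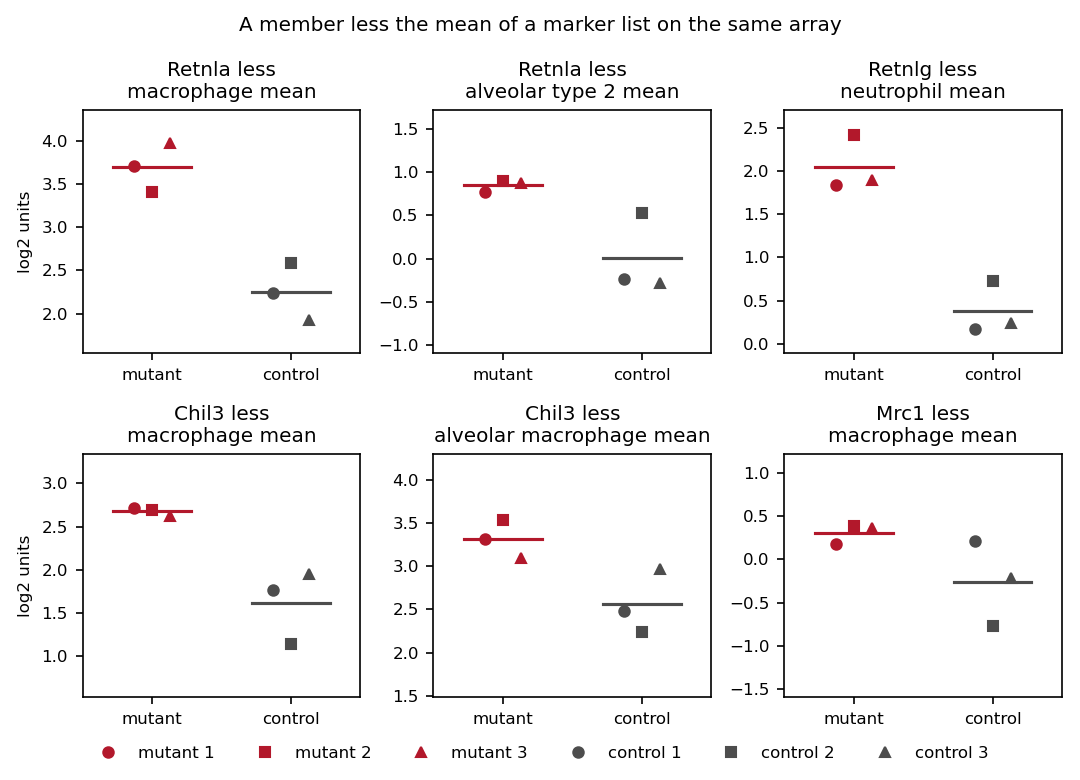
Log2 value of a gene less the mean log2 value of a marker list on the same array (vertical axis), for 3 mutant arrays (red) and 3 control arrays (grey). Lines are group means. The groups are apart in the panels of Retnla, Retnlg and Chil3 and overlap in that of Mrc1, and for 3 of 14 lists for Retnla, 2 for Retnlg, 8 for Chil3 and 12 for Mrc1 the groups overlapped.

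Other genes of alternative activation showed no shift as a group. Of 18 measured, 10 lay above 0 and none passed, with a median log2 difference of 0.02. The smallest p belonged to Tgm2, a transglutaminase, which read 10.54, 10.18 and 10.18 on mutant arrays and 9.99, 9.91 and 9.75 on control arrays (log2 difference 0.42, adjusted p = 0.370). Pparg, a nuclear receptor of alveolar macrophages and fat, followed (0.57, adjusted p = 0.452). Irf4, a transcription factor used by macrophages and plasma cells, differed by -1.95 (adjusted p = 0.453) and read 5.03, 6.44 and 5.27 on mutant arrays, against 5.91, 8.27 and 8.42 on control arrays, with control 1 among the mutants as in the B and plasma cell list.

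Upstream, 14 genes of interleukin 4 and 13 signalling were measured, with a median log2 difference of 0.01, and none passed. Il4 and Il13, the ligands, differed by 0.01 and -0.05. Both read below the median of each array, so these values do not show whether RNA of the ligands changed. The receptor chains Il4ra and Il13ra1 differed by 0.14 and 0.01, and Stat6 by 0.11 (adjusted p = 0.704). Tslp, an epithelial cytokine that promotes type 2 responses, had the smallest p (5.44, 5.45 and 5.25 on mutant arrays, 5.13, 5.12 and 4.96 on control arrays, log2 difference 0.31, adjusted p = 0.372). Tyk2, a receptor-bound kinase, differed by -0.23 (adjusted p = 0.558).

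Around Arg1, 1 of 14 other measured genes of arginine and polyamine metabolism passed, against 0.266% of all genes. Sat1, which acetylates spermidine and spermine for their breakdown or export, rose 1.76-fold. It read 10.31, 10.32 and 10.41 on mutant arrays, against 9.43, 9.58 and 9.58 on control arrays (log2 difference 0.82, SE 0.083, limma adjusted p = 0.0246). Its adjusted p was 0.0718 to 0.139 without any 1 of the mutants or of controls 2 and 3, and 0.0232 without control 1, while the log2 difference stayed between 0.77 and 0.84. Asl, which makes arginine, differed by -0.39 (adjusted p = 0.201) and Azin1, which protects ornithine decarboxylase from breakdown, by 0.40 (adjusted p = 0.268), both without overlap between groups. The list had 7 of 14 above 0 and a median of -0.04. Arg2, the mitochondrial arginase, differed by 0.16 and Nos2, which competes for arginine, by 0.10.

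Genes with the most similar pattern over the 6 arrays were sought for the 6 of the 9 genes whose values spanned at least 1 log2 unit, by the root mean square difference of profiles centred on their means. With 19938 genes and 6 arrays, near matches arise easily. For Retnla they were Ccr8 (0.162 log2 units), a chemokine receptor, Tlr2 (0.190), a receptor for bacterial lipoproteins, and Upk3a (0.192), a uroplakin. Genes chosen this way share the difference of Retnla by that choice, so their own differences are no separate evidence. The log2 differences were 1.11 (limma adjusted p = 0.0423), 1.11 (0.0200) and 1.24 (0.0264). Each lost the call when any mutant or control 2 or 3 was left out. Ccr8 was dim, below the median of each array. For Retnlg the nearest were Dgkk (0.135), Iigp1 (0.176) and Cth (0.227), for Chil3 Cers3 (0.171), Hc (0.191) and Lox (0.196), and for Chia1 Plat (0.192), Ndnf (0.270) and Dcbld1 (0.282).

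Chil1 was followed most closely by Uhrf1 (0.047), Cd6 (0.064) and Snx20 (0.069). By the same choice they share its split between control 1 and controls 2 and 3. Mrc1 was followed by Edil3 (0.050), Grk5 (0.069) and Echdc1 (0.070). Among the 9 genes, Retnla and Retnlg were 0.336 apart and each other's nearest, and Mrc1 lay nearest to Cd163 (0.206).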

How the data were processed

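The authors deposited log2 values, and oligo, RMA and limma are the tools that the submitters' processing notes name. Tool versions and the genome build were not given in the sources used here. Detection calls, scanner output and dates of scanning were not used, and batches were therefore not tested. Platform annotation gave exactly 1 symbol to 21789 of 35556 rows, and the highest-mean row of each gene left 19938 genes. The groups were compared with limma 3.58.1 under R 4.3.3 (lmFit, eBayes, no filter, genotype as the only term), two-sided, with Benjamini-Hochberg adjustment over all genes and a threshold of 0.05. SEs are limma's moderated ones. The procedure was tested on simulated data. Members and lists were chosen with earlier results of these data known. Named genes were all members, called list genes and up to 3 per pathway list by p, and the 3 nearest profiles. The search for near profiles left out predicted and unnamed transcripts, small RNA genes, olfactory and vomeronasal receptor genes and every symbol beginning with Rn. Other genes named were chosen after their values were seen. Marker lists and alternatives are given with their results. Tables used Python 3.11.15 with pandas 2.3.3, and figures matplotlib 3.10.9. Promoter sequences are RefSeq's.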

Additional observations from a re-analysis of the deposited data

How the results depend on the processing

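Retnla (1.01 to 1.43), Retnlg (0.93 to 1.58), Chil3 (0.43 to 1.02), Chia1, Mrc1 and Mgl2 kept their sign in the 16 settings run. Chil1 turned to 0.08 without controls 2 and 3, a setting in which 1 control array is assumed to vary like the rest, and Cd163 to -0.21 there and to -0.12 with array weights. Leaving out 1 array gave -0.03 to 0.06 for Arg1 and -0.18 to 0.19 for Cd163. Arg1 had no value with the lowest 40% of genes left out. The number of members called was 0 to 1 with 1 array left out, 1 with array weights and 2 without control 1 and mutant 2. The number of all genes called, 53, became 9 to 388 with 1 array left out (9 without control 2, 388 without control 1), 291 with array weights, 82 with an intensity trend and 963 without control 1 and mutant 2. It was 0 in limma with the replicate block (1945 at an unadjusted p under 0.05) and 0 without controls 2 and 3 (1542). Deviations of same-numbered arrays from their group means correlated at 0.136, -0.091 and -0.04, against -0.204 to 0.176 for unlike numbers. Not every array correlated best with its own number. A pairing by number was thus not shown, and 3 arrays per group are too few to show that there is none. Under the block the adjusted p was 0.184 for Retnla and 0.286 for Retnlg. Of 320 list medians under alternatives, 295 moved by less than 1 SD between arrays. Sat1, Tlr2 and Upk3a passed in 9 of 16 settings and Ccr8 in 7 of 15. Precision is limited by the number of arrays, and dim probe sets such as those of Arg1, Retnlb and Chil4 cannot be called above or below background.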

Other observations

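Genes of classical macrophage activation, the counterpart of the alternative state, had a median log2 difference of -0.04 with 6 of 13 measured above 0, and none passed. Ptgs2, the inducible prostaglandin synthase, had the smallest p of that list. It read 8.89, 9.41 and 9.30 on mutant arrays, against 7.93, 8.27 and 8.38 on control arrays (log2 difference 1.01, limma adjusted p = 0.122). The list as a whole averaged 6.24, 6.81 and 6.21 on mutant arrays and 5.92, 6.90 and 6.69 on control arrays, with control 1 lowest, and its median was -0.69 to 0.39 over the settings run. Irf5 and Gpr18, next by p, differed by -0.49 (adjusted p = 0.663) and -1.17 (adjusted p = 0.664).

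The 7 eosinophil markers averaged between 4.88 and 5.15 on mutant arrays and between 5.10 and 5.30 on control arrays, with a median of 0.05. Epx, the eosinophil peroxidase gene, read between 4.28 and 4.33 on mutant arrays and between 4.17 and 4.46 on control arrays, below the lower quartile of each array. The 8 dendritic cell markers had a median of -0.28 (-0.71 to 0.10 over the settings run), with 3 of 8 above 0. Those 3 were Clec9a (0.34), Zbtb46 (0.05) and Xcr1 (0.03). Flt3, a growth factor receptor of that lineage, read 6.32, 6.38 and 5.89 on mutant arrays, against 6.42, 7.34 and 7.23 on control arrays (log2 difference -0.80, limma adjusted p = 0.405). It was the 1 marker of the 8 whose groups did not overlap, against 15.0% of all genes either way.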
